A study of Mus musculus with 1824 samples.

Results

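Imprinted genes were followed through the single-cell transcriptomes of early mouse embryos. The members are 40 genes known to be imprinted in the mouse, taken by symbol and not by their measured values, and all 40 were found among the 55487 genes of the count table. Of these, 16 are listed here as maternally expressed and 24 as paternally expressed. They are called maternal and paternal members as background only. The reads were not split by allele, so whether a member had that bias in the cells studied here is not known.

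Genomic imprinting is the marking of a gene by DNA methylation laid down in the egg or the sperm, so that transcription depends on the parent from which the copy came. Imprinted genes lie in clusters that share a control region, and many act on growth, on the placenta and on metabolism. In the early embryo these marks are kept by the zinc-finger protein ZFP57, which binds the methylated hexamer TGCCGC, and by its partner TRIM28, whereas TET enzymes take part in the removal of methylation.

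The cells came from a study of TET enzymes in which embryonic stem cells lacking the TET enzymes (*Tet* triple knockout) and carrying an H2B-tdTomato reporter were injected into C57BL/6J blastocysts, which then developed in CD1 recipients. In a chimaera, host and knockout cells develop side by side, and the methods describe sorting by CD41, KDR and tdTomato into plates of 96 wells. The strain label of every cell is CD1. The E7.5 group (embryonic day 7.5) filled 11 plates of 96 wells, 1 cell to a well, namely 4 plates titled by embryo (1, 2, 4 and 5), 1 titled chimera plate 3, and 6 named here as lane plates after the lane in their titles. The titles of the embryo plates and of chimera plate 3 name a chimaera. The E8.5 group filled 8 numbered plates that carry no animal name and so count as 1 sample. The labels of a cell give neither its genotype nor its gate, so host and knockout cells were not compared.

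RNA was read by Smart-seq2, which covers whole transcripts and has no molecular identifiers, so reads are not independent molecules and intervals cover counting error only. Of 1824 cells, 1634 had at least 100000 reads and passed the limits on mitochondrial and ribosomal reads, from 11 plates at E7.5 and 8 at E8.5. Their median depth was 678018 reads (100941 to 6162793), and plate totals ran from 13423662 to 170844738 reads. The cells fell into 24 clusters, which were given 16 class names from marker genes with the members left out of the clustering. Names are shortened below: the caudal epiblast-like class includes neuromesodermal, the surface ectoderm-like class amnion, the myeloid-like class leukocyte and the extraembryonic mesoderm-like class allantois markers. Levels are reads of a gene scaled to 1000000 reads in all (CPM), pooled over the cells of a plate or class. In a pooled value, fewer cells of a type and less RNA per cell cannot be told apart.

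Imprinted transcripts were common in these cells. A cell held reads of 24 of the 40 members at the median (3 to 37), and of 21 after each cell was thinned to 100000 reads. As counted, 26 members were seen in at least 50% of cells, and 20 were after thinning. *Commd1*, a factor in copper handling, was seen in 99.7% of cells (95% Clopper-Pearson interval 99.3 to 99.9), and *Snrpn*, a component of the splicing machinery, in 94.9% (93.7 to 95.9). At the other end, *Nap1l5* was seen in 3.67% (2.81 to 4.70) and *Rasgrf1*, a guanine nucleotide exchange factor, in 3.24% (2.44 to 4.22). *Nap1l5*, *Rasgrf1* and *Zrsr1*, a splicing factor gene inside an intron of *Commd1*, stayed under 10 CPM on each of the 19 plates.

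Per kilobase of exon, the most abundant members over all cells were *Mest*, a hydrolase-fold protein of mesoderm (427.2 CPM per kb), and *Phlda2*, a growth-restraining gene of placenta (353.9). *Cd81*, a tetraspanin, followed at 136.3 and *Snrpn* at 132.3, close to each other. *Peg3*, a zinc-finger gene, had 96.1 CPM per kb and *Mcts2*, a retrogene of *Mcts1*, 92.1. The order rests on levels pooled over all cells, and the members with the highest level per kb differed between classes. In haematoendothelial-like cells *Mest* led with 1227 CPM per kb, in extraembryonic mesoderm-like cells *Phlda2* with 990.2, in epiblast-like cells *Snrpn* with 354.8 and in erythroid-like cells *Mcts2* with 96.4.

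Members of one imprinted cluster were then set side by side over the 19 plates. At the *Igf2*-*H19* locus on chromosome 7, the maternal non-coding RNA *H19* (142575529 to 142578143, minus strand, GRCm38) ranged from 17.7 CPM on E8.5 plate 2 to 475.3 CPM on E7.5 lane plate 2, with a median of 120.4. *Igf2*, the paternal growth factor, had low counts, from 0.371 to 35.8 CPM with a median of 5.87. In haematoendothelial-like cells it was seen in 91.4% of cells but pooled to only 17.8 CPM. Settings for overlapping and multi-mapped reads are not stated, so low counts and low expression cannot be told apart. The range over plates was wide for both genes, and their lowest value was on the same plate.

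At the *Dlk1*-*Dio3* locus on chromosome 12, the maternal non-coding RNAs *Meg3* and *Rian* had nearly the same profile over plates. *Meg3* ranged from 0.864 to 385.03 CPM with a median of 163.1, and *Rian* from 0.771 to 573.8 CPM with a median of 208.1. Both were lowest on E8.5 plate 5 and highest on E8.5 plate 4. *Mirg*, a host transcript of microRNAs of the same cluster, was lower, from 0.0934 to 27.7 CPM with a median of 9.32, with its extremes on those plates too. The paternal members were low on most plates: *Dlk1*, a transmembrane relative of Notch ligands, ranged from 0.0467 to 105.7 CPM (median 7.78) and *Rtl1*, a retrotransposon-derived gene, from 0 to 21.8 CPM (median 8.08). In single cells, *Meg3* and *Rian* had a Spearman correlation of 0.76 over the haematoendothelial-like cells (18.4% of the 1634) and 0.75 over the 190 extraembryonic mesoderm-like cells (0.73 and 0.69 after thinning). These cells share plates and depth, and in erythroid-like cells, where both genes were near 1 CPM, the value was 0.08.

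At the *Peg3* locus on chromosome 7, paternal *Peg3* ranged from 26.2 CPM on E8.5 plate 5 to 2443 CPM on E7.5 lane plate 3, with a median of 1418. Paternal *Usp29*, a deubiquitinase gene transcribed the other way from the same interval, ranged from 0.864 to 36.3 CPM (median 18.5), with its extremes on the same plates. The maternal neighbour *Zim1*, a zinc-finger gene, ranged from 0 to 21.9 CPM (median 3.55). *Peg3* and *Usp29* start at either end of a short interval, which is shown because both genes rose together in the embryo comparison. It lies at chr7:6730432-6730577 (GRCm38.p6, plus strand), holds no annotated exon and no TGCCGC on either strand, and has 5 CpG.

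Peg3-Usp29: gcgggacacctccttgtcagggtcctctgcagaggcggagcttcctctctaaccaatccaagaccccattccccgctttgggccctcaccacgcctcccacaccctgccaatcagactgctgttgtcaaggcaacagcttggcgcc

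In the *Kcnq1* domain of chromosome 7, paternal *Kcnq1ot1*, the long non-coding RNA that silences its neighbours, ranged from 54.01 to 175.4 CPM (median 96.3). *Phlda2* was the most variable member of the domain, from 0.0934 CPM on E8.5 plate 5 to 1148 CPM on E7.5 lane plate 5 (median 356.8). *Cdkn1c*, an inhibitor of cyclin-dependent kinases, ranged from 1.41 to 183.01 CPM (median 18.6), *Cd81* from 101.2 to 1098 CPM (median 260) and *Slc22a18*, a transporter, from 0 to 13.4 CPM (median 3.29). The range over plates was narrowest for the silencing RNA.

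At the *Igf2r*-*Airn* locus on chromosome 17, maternal *Igf2r*, the receptor that clears IGF2, ranged from 28.3 to 270.2 CPM (median 95.9), and paternal *Airn*, its antisense RNA, from 0.819 to 46.3 CPM (median 6.30). The transcripts overlap on opposite strands, and the strand setting of the counting is not stated, so their reads cannot be told apart where they overlap. At the *Peg10*-*Sgce* locus on chromosome 6, *Peg10*, a retrotransposon-derived placental gene, ranged from 9.68 to 895.1 CPM (median 176.4) and *Sgce*, epsilon-sarcoglycan, from 0.459 to 113.2 CPM (median 29.04). *Asb4*, a maternal gene for a ubiquitin ligase adaptor, ranged from 0.0177 to 158.8 CPM (median 42.3), whereas *Ppp1r9a*, a maternal gene for an actin-binding protein, kept within 13.8 to 57.4 CPM (median 28.9).

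The E8.5 plates were next read in the pairs 1 and 2, 3 and 4, 5 and 6, and 7 and 8. The labels do not say what sets the plates of a pair apart, and a plate is a single technical unit, so values are given side by side with no test. The plates of a pair also differed in their cells: plate 1 held 73 erythroid-like and 17 extraembryonic endoderm-like cells, and plate 2 held 54 blood progenitor-like and 34 erythroid-like cells. Plate 5 held 41 megakaryocyte-like and 34 myeloid-like cells, and plate 6 held 60 haematoendothelial-like and 22 blood progenitor-like cells. Their part in the differences between whole plates was not tested, and values within a class follow below.

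Between whole plates, the members with a difference of 2-fold or more lay mostly on the even plate in 3 of the 4 pairs. On plates 1 and 2, of 26 members with at least 10 CPM on either plate, 6 were at least 2-fold higher on plate 2, where 9.96% of all genes at that level were, and 13 on plate 1, where 9.42% were. On plates 3 and 4, of 34 members, 11 were 2-fold higher on plate 4 (5.35% of all genes) and 2 on plate 3 (6.46%). On plates 5 and 6, of 28 members, 18 were 2-fold higher on plate 6 (13% of all genes) and 2 on plate 5 (6.17%). On plates 7 and 8, of 36 members, 7 were 2-fold higher on plate 8 (5.7% of all genes) and 2 on plate 7 (6.46%). Paternal members made up most of those higher on the even plate, 6 of 6, 8 of 11, 14 of 18 and 5 of 7. They were also most of the members past the level, 14 of 26, 21 of 34, 17 of 28 and 21 of 36. Whether the shares differ was not tested.

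The medians of the log2 ratio, even over odd plate of pooled CPM + 1, were also taken by parental class, with no test of the difference. For whole plates, over the paternal members they were 0.84, 0.78, 2.05 and 0.74 in the 4 pairs, and over the maternal members −2.62, −0.00, 0.71 and 0.13. Over all genes at that level they were 0.24, −0.01, 0.04 and −0.01, so plate 2 stood above plate 1 for genes in general.

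Of 24 members past the level in every pair, 7 were higher on the even plate in all 4 pairs (11% of all genes past the level in every pair were), and 1 was higher on the odd plate in all 4 (4.75%). The 7 were *Mest*, *Snrpn*, *Ndn*, *Impact*, *Slc38a4*, *Zdbf2* and *Mcts2*, each of them paternal, and the 1 was *H13*, which is maternal. At 2-fold or more in all 4 pairs, 3 members were higher on the even plate (*Snrpn*, *Ndn* and *Slc38a4*; 0.523% of all genes) and 0 on the odd plate (0.157%). These 8 members kept their direction in each pair with edgeR's TMM scaling of library sizes, with haemoglobin genes left out of the total and with the mean of single-cell CPM.

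*Snrpn* had 51.99 CPM on plate 1 and 200.2 on plate 2, 66.2 on plate 3 and 325.7 on plate 4, 55.5 on plate 5 and 158.3 on plate 6, and 123.9 on plate 7 and 476.96 on plate 8. The even plates were all above the odd plates, with ratios of 3.85, 4.92, 2.85 and 3.85 (95% counting intervals 3.73 to 3.98, 4.74 to 5.10, 2.73 to 2.98 and 3.75 to 3.95). *Ndn*, a growth-suppressing protein of the MAGE family from the same domain of chromosome 7, had 3.23 and 29.9 CPM, 210.04 and 499.2 CPM, 51.7 and 217.3 CPM, and 203.6 and 451.6 CPM on the odd and even plates of the pairs in turn. *Slc38a4*, an amino acid transporter of placenta and liver, had 13.1 and 115.9 CPM, 385.98 and 811.6 CPM, 50.6 and 188.1 CPM, and 213.8 and 812.3 CPM in the same order. Odd and even plates of different pairs overlapped for *Ndn* and *Slc38a4*, so their order held within pairs only.

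*Impact*, a regulator of translation under amino acid shortage on chromosome 18, had 68.9 and 185.1 CPM, 86.7 and 283.9 CPM, 34.4 and 80.05 CPM, and 84.5 and 149.7 CPM. *Zdbf2*, a zinc-finger gene of chromosome 1, had 4.97 and 24.7 CPM, 36.7 and 118.1 CPM, 2.50 and 62.3 CPM, and 68.1 and 94.9 CPM. *Mest* had 22.4 and 42.3 CPM on plates 1 and 2, 6233 and 8358 on plates 3 and 4, 237.8 and 3686 on plates 5 and 6, and 2266 and 3947 on plates 7 and 8. The smallest of these gaps were 1.34-fold for *Mest* on plates 3 and 4 and 1.39-fold for *Zdbf2* on plates 7 and 8.

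**Figure D1:**
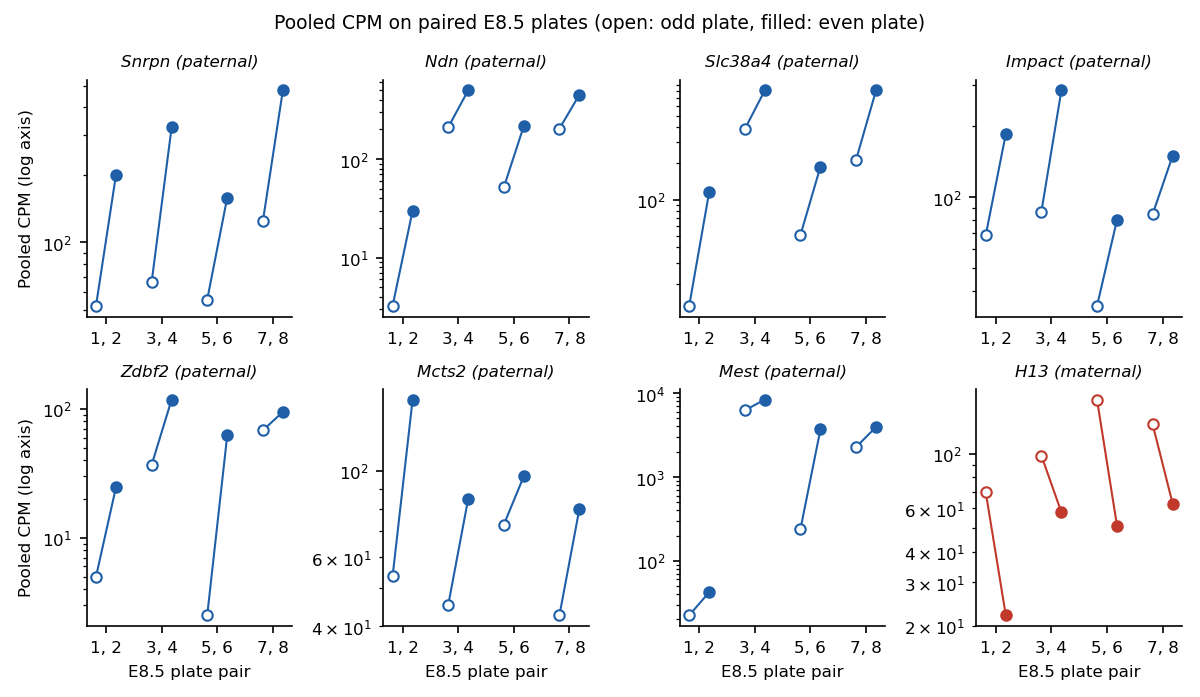
Pooled CPM (log axis) of the 8 members that had the same order in all 4 pairs of E8.5 plates, 1 panel per gene, with odd plates as open and even plates as filled points joined by a line. Lines go up for the 7 paternal members in blue (*Snrpn* from 51.99 to 200.2 CPM on plates 1 and 2) and down for maternal *H13* in red (69.5 to 22.04 CPM).

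*Mcts2* and *H13* form one imprinted locus on chromosome 2. *Mcts2* (152687035 to 152687946, plus strand) lies in an intron of *H13* (152669461 to 152708670, plus strand), which encodes a signal peptide peptidase. *Mcts2* had 53.6 and 152.4 CPM, 45.3 and 84.8 CPM, 72.8 and 96.96 CPM, and 42.6 and 80.1 CPM on the odd and even plates. *H13* went the other way, with 69.5 and 22.04 CPM, 98.1 and 57.7 CPM, 165.5 and 50.8 CPM, and 131.3 and 62.6 CPM. Reads from *H13* introns can fall on *Mcts2*, since both lie on the plus strand.

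The stretches before both starts are shown because these neighbours had opposite orders. Stretches before an annotated start of *Snrpn* and of *Grb10*, a paternal and a maternal member described within classes, are added. Both of these genes have other annotated starts, whose stretches are not shown. They are GRCm38.p6 sequences from RefSeq, written on the strand of the gene, and hold no annotated exon. *Mcts2* is at chr2:152686898-152687034 (plus), *H13* at chr2:152669211-152669460 (plus), *Snrpn* at chr7:60140226-60140475 (minus) and *Grb10* at chr11:12037421-12037670 (minus). Capitals mark TGCCGC or its complement GCGGCA.

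Mcts2: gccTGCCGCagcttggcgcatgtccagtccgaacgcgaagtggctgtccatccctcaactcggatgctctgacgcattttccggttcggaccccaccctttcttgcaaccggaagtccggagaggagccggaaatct

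H13: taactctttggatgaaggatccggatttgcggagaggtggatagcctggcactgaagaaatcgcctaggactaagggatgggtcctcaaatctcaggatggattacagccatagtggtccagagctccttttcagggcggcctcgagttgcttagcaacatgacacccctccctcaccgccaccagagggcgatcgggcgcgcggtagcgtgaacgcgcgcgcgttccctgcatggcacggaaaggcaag

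Snrpn: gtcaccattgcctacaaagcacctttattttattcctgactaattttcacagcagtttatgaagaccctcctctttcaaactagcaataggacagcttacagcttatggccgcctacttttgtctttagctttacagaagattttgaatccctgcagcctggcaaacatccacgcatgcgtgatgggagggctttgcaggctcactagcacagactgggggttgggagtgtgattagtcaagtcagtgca

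Grb10: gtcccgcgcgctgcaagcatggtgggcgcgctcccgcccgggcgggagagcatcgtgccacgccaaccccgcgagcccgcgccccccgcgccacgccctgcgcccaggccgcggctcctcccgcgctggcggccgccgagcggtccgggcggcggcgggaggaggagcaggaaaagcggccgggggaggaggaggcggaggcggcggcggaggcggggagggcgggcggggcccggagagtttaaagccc

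The *Mcts2* stretch holds 1 hexamer and 12 CpG, and was ended at the first exon of the gene. The 250-base stretches of *H13*, *Snrpn* and *Grb10* hold no hexamer and 18, 3 and 40 CpG. Over all genes, 8.68% of 32851 windows of 250 bases before a start held the hexamer on either strand. Among members it was present in 8 of 52 windows, which include overlapping windows of *Mest*. They belong to 7 of the 33 members with a window (5 of 19 paternal and 2 of 14 maternal), where 9.84% of all genes held it. Member windows were richer in CpG (median 10 against 6 over all windows), and the hexamer holds a CpG. Whether the shares differ was not tested. A match of these letters is a description and not a binding site.

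Other members stood out in single pairs. *Asb4* had 158.8 CPM on plate 3 and 4.32 on plate 4, the largest gap of that pair. *Phlda2* had 185.5 and 3.87 CPM on plates 1 and 2, 0.0934 and 41.1 on plates 5 and 6, 106.05 and 435.5 on plates 3 and 4, and 97.8 and 356.8 on plates 7 and 8, so its order turned between pairs. *Plagl1*, a zinc-finger regulator of an imprinted gene network, had 172.4 and 488.5 CPM on plates 3 and 4, 0.794 and 160 on plates 5 and 6, and 25.3 and 216.3 on plates 7 and 8.

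In the first pair, the members with the largest gaps toward plate 1 besides *Phlda2* were *Dlk1* (26.1 and 0.247 CPM), *Rian* (117.9 and 6.46), *H19* (282.6 and 17.7) and *Peg10* (156.8 and 9.68). Over all plates these 5 had from 75.4 (*Dlk1*) to 716.03 CPM (*Peg10*) in extraembryonic endoderm-like cells, of which plate 1 held 17 and plate 2 held 0. Within erythroid-like cells alone, *H19* still had the higher level on plate 1, while *Rian*, *Meg3*, *Phlda2*, *Dlk1* and *Cdkn1c* were under 10 CPM on both plates, so no order is read for them. In the third pair, *Rian* (0.771 and 73.7 CPM) and *Meg3* (0.864 and 68.5) were nearly absent from plate 5.

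*Peg13*, a paternal non-coding RNA inside an intron of *Trappc9* on chromosome 15, was lower on the even plate in the 3 pairs where it reached 10 CPM, with 37.0 and 14.4 CPM, 24.1 and 11.6 CPM, and 10.1 and 1.06 CPM. *Magel2*, a MAGE-family neighbour of *Ndn*, had 11.2 and 75.1 CPM on plates 3 and 4. *Gnas*, which encodes a stimulatory G protein, had 7.27 and 19.9 CPM on plates 7 and 8. *Commd1* differed little, with 82.2 and 83.96 CPM, 93.1 and 107.8 CPM, 106.6 and 89.4 CPM, and 105.3 and 105.4 CPM in the 4 pairs. *Kcnq1ot1* had 76.5 and 134.1 CPM on plates 1 and 2, 135.2 and 98.4 on plates 3 and 4, 59.5 and 68.8 on plates 5 and 6, and 96.6 and 96.3 on plates 7 and 8, so its order turned between the first 2 pairs.

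To hold the cell class fixed, the pairs were compared again within each class with at least 10 cells on both plates. This left 5 comparisons: erythroid-like cells of plates 1 and 2 (73 and 34 cells), haematoendothelial-like cells of plates 3 and 4 (70 and 45), and caudal epiblast-like (13 and 25), pharyngeal and cardiac mesoderm-like (22 and 12) and surface ectoderm-like cells (27 and 23) of plates 7 and 8. Plates 5 and 6 shared no such class. The last 3 classes were 1 cluster each. Of the erythroid-like cells, 57 of 73 on plate 1 lay in cluster 10 and 30 of 34 on plate 2 in cluster 18. Of the haematoendothelial-like cells, 56 on plate 3 lay in cluster 2 and 14 in cluster 21, and on plate 4, 25 lay in cluster 2 and 20 in cluster 6.

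In erythroid-like cells, 6 of 17 members at 10 CPM or more were 2-fold higher on plate 2 (7.62% of all genes) and 1 on plate 1 (3.85%). In haematoendothelial-like cells, 9 of 34 were 2-fold higher on plate 4 (5.46%) and 3 on plate 3 (7.73%). In both classes the members higher on the even plate were mostly paternal, 6 of 6 and 8 of 9, where 10 of 17 and 21 of 34 past the level were. In pharyngeal and cardiac mesoderm-like cells, 14 of 35 were higher on plate 8 (15%) and 2 on plate 7 (15.3%). Among the 14 were 8 paternal and 6 maternal members, and among the 35 were 20 and 15. In surface ectoderm-like cells the counts were 5 of 34 (11.1%) and 4 (13.6%), and in caudal epiblast-like cells 5 of 34 (12.6%) and 12 (12.9%). In both of these classes the 5 on plate 8 were paternal. Those on plate 7 were 4 of 4 and 8 of 12 maternal. Of the 34 members past the level, 20 were paternal and 14 maternal in each of these classes. The median log2 ratios of paternal and maternal members were 1.37 and −0.09 in erythroid-like, 0.46 and −0.02 in haematoendothelial-like, 0.33 and −0.45 in surface ectoderm-like and 0.03 and −1.26 in caudal epiblast-like cells, but 0.54 and 0.60 in pharyngeal and cardiac mesoderm-like cells, where the maternal median was not the lower one.

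Of 17 members past the level in all 5 comparisons, 3 were higher on the even plate in each (5.86% of all genes) and 3 on the odd plate in each (4.02%). *Snrpn*, *Slc38a4* and *Mcts2*, higher on the even plate, are paternal, and *H13*, *Grb10* and *H19*, higher on the odd plate, are maternal. These 6 values are of unequal size, and 2 of them round to no difference, *Grb10* in erythroid-like cells (log2 ratio −0.05) and *H19* in pharyngeal and cardiac mesoderm-like cells (−0.01).

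*Snrpn* had 62.7 and 156.3 CPM in erythroid-like cells, 60.6 and 144.2 in haematoendothelial-like cells, 84.6 and 370.6 in caudal epiblast-like cells, 127.8 and 277.4 in pharyngeal and cardiac mesoderm-like cells and 102.8 and 466.1 in surface ectoderm-like cells, odd plate first. The order was that of whole plates, and in each of the 5 classes the upper quartile of single cells on the odd plate lay below the median on the even plate, for example 92.6 and 155.3 CPM in erythroid-like cells. *Mcts2* had 62.3 and 170.9, 46.5 and 101.4, 49.8 and 108.9, 62.4 and 72.4, and 20.05 and 76.6 CPM in the same order of classes. *Slc38a4* had 14.5 and 85.001, 322.7 and 404.1, 204.7 and 485.1, 229.1 and 437.4, and 274.4 and 869.8 CPM.

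*Slc38a4* also differed in how many cells held it. It was seen in 31.5% of erythroid-like cells on plate 1 and in 91.2% on plate 2, although the cells of plate 1 were deeper, at a median of 1073460 reads against 513672. In the other 4 classes it was seen in at least 90.9% of cells on both plates.

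*H13* had 44.97 and 22.3 CPM in erythroid-like cells, 94.1 and 60.6 in haematoendothelial-like cells, 120.8 and 46.6 in caudal epiblast-like cells, 151.9 and 31.5 in pharyngeal and cardiac mesoderm-like cells and 167.5 and 69.2 in surface ectoderm-like cells. *Grb10*, a maternal adaptor that restrains insulin and growth factor signalling, had 531.5 and 513.7, 627.8 and 276.1, 1070.1 and 471.03, 1030.9 and 645.8, and 1058 and 790.3 CPM in the same order. *H19* had 172.5 and 18.7, 442.1 and 325.7, 327.3 and 34.4, 188.4 and 187.4, and 222.3 and 115.9 CPM. The largest of these gaps were those of *H19* in caudal epiblast-like and erythroid-like cells.

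**Figure D2:**
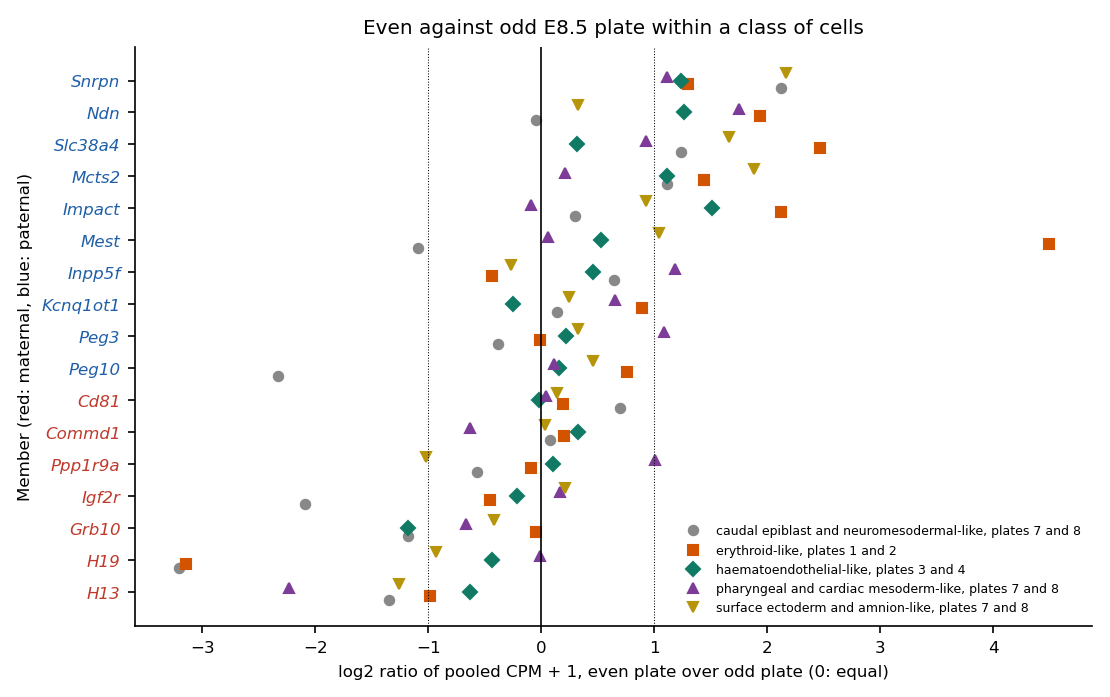
Log2 ratio of pooled CPM + 1, even over odd E8.5 plate, within a class of cells, for the 17 members with at least 10 CPM in all 5 comparisons, 1 symbol per class, with maternal names in red and paternal in blue. The 5 symbols of *Snrpn*, *Slc38a4* and *Mcts2* lie right of 0 and those of *H13*, *H19* and *Grb10* left of it or on it (*Grb10* −0.05 in erythroid-like cells), while *Mest* ranges from −1.09 to 4.49.

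*Grb10* had no read in some single cells of the even plates, in shares that did not follow the size of the pooled gap. On the odd plates it was seen in 100% of cells of each of the 5 classes, and on the even plates in 91.2% (erythroid-like), 73.3% (haematoendothelial-like), 92% (caudal epiblast-like), 91.7% (pharyngeal and cardiac mesoderm-like) and 86.96% (surface ectoderm-like). With each cell thinned to 100000 reads, haematoendothelial-like cells held it in 100% of 70 cells on plate 3 (95% Clopper-Pearson interval 94.9 to 100) and in 73.3% of 45 on plate 4 (58.1 to 85.4). The lower quartile, median and upper quartile were 458.5, 589.2 and 820.1 CPM on plate 3, and 0, 259.1 and 400.5 CPM on plate 4. In caudal epiblast-like cells, most of which held a read on plate 8 too, the median was 1163 CPM on plate 7 and 350 on plate 8.

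*H13* was seen less often on the even plate too. After thinning, it was seen in 84.3% of haematoendothelial-like cells on plate 3 (73.6 to 91.9) and 57.8% on plate 4 (42.2 to 72.3), and in 69.9% of erythroid-like cells on plate 1 (58 to 80.1) and 47.1% on plate 2 (29.8 to 64.9). *Mcts2* was seen in 67.1% and 86.7% of the same haematoendothelial-like cells and in 76.7% and 94.1% of the erythroid-like cells. Cells of a plate share their preparation, so these intervals do not cover the spread between plates. Across cells of 1 class, *H13* and *Mcts2* had Spearman correlations from −0.20 to 0.02 in 5 classes (epiblast-like, nascent mesoderm-like, extraembryonic mesoderm-like, haematoendothelial-like and erythroid-like, with 7.47% to 18.4% of the 1634 cells each).

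**Figure D3:**
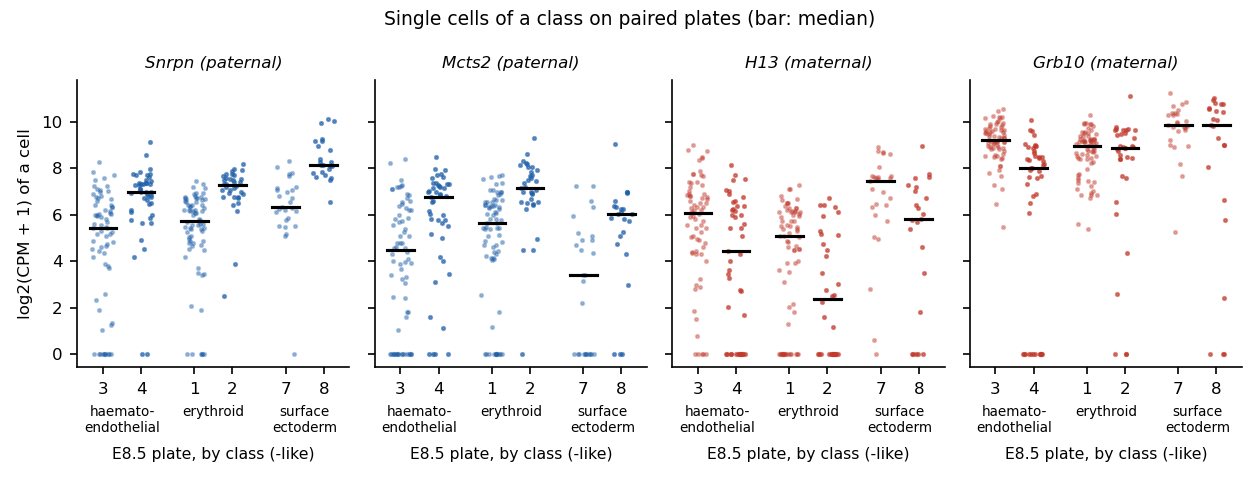
Log2(CPM + 1) of *Snrpn*, *Mcts2*, *H13* and *Grb10* in single cells (points) of E8.5 plates, paired by class, with the median as a bar. Points at 0 are cells with no read, which for *Grb10* are found on the even plates only (12 of 45 haematoendothelial-like cells of plate 4), and the bars go up toward the even plate for *Snrpn* and *Mcts2* and down for *H13*.

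Some members differed in 1 class or a few. *Asb4* had 184.2 CPM in haematoendothelial-like cells of plate 3, seen in 72.9% of them, and 3.71 CPM on plate 4, seen in 4.44%. In surface ectoderm-like cells it had 12.7 CPM on plate 7 and no read on plate 8, and in caudal epiblast-like cells 10.1 and 0.0456 CPM. In pharyngeal and cardiac mesoderm-like cells of the same plates its values were near each other, 105.7 and 94.8 CPM. *Plagl1* was higher on the even plate in 4 classes, with 206.4 and 697.7 CPM in haematoendothelial-like, 12.7 and 49.1 in caudal epiblast-like, 84.9 and 302.4 in pharyngeal and cardiac mesoderm-like and 5.41 and 111.4 in surface ectoderm-like cells.

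*Mest* in erythroid-like cells had 0.496 CPM on plate 1 and 32.7 on plate 2. It was seen there in 27.4% and 11.8% of cells, so the pooled value on plate 2 came from few cells. *Impact* had 29.1 and 130.2 CPM in erythroid-like and 57.95 and 167.4 CPM in haematoendothelial-like cells, and 116.3 and 109.3 CPM in pharyngeal and cardiac mesoderm-like cells, where the plates were alike in level. *Ndn* had 2.74 and 13.4, 199.01 and 478.9, and 201.4 and 681.9 CPM in these 3 classes, and 254.9 and 246.2 CPM in caudal epiblast-like cells.

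Further members with the largest gaps of a class were these. In haematoendothelial-like cells *Magel2* had 3.74 and 27.6 CPM, *Zdbf2* 33.4 and 90.9, *Peg13* 45.1 and 18.8, and *Airn* 35.9 and 22.4. In pharyngeal and cardiac mesoderm-like cells *Rtl1* had 5.77 and 46.6 CPM, *Gnas* 4.51 and 33.4, *Usp29* 22.9 and 77.2, *Airn* 53.6 and 26.1, *Dlk1* 109.5 and 61.9, and *Commd1* 139.5 and 89.5. This class had the fewest cells on plate 8. In caudal epiblast-like cells *Zim1* had 13.2 and 0.639 CPM, *Peg10* 419.4 and 82.6, *Igf2r* 205.01 and 47.5, and *Zdbf2* 42.3 and 87.2. In surface ectoderm-like cells *Zim1* had 43.6 and 19.5 CPM, *Ppp1r9a* 43.7 and 21.1, and *Mest* 1884 and 3864. *Igf2r*, *Inpp5f* and *Ppp1r9a* in erythroid-like cells differed little, at 33.5 and 24.2, 12.9 and 9.24, and 12.4 and 11.5 CPM.

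The members were then described over the 16 classes, with both stages pooled and with no test. Blood classes had the lowest share of reads from the members. The summed level of the 40 members was 1317 CPM in erythroid-like, 1478 in megakaryocyte-like and 1847 in blood progenitor-like cells, against 10103 in haematoendothelial-like and 13443 in extraembryonic mesoderm-like cells. A few genes weigh most in such sums, *Peg3* with 3504 and *Mest* with 2760 CPM in the last class, and haemoglobin reads stayed in the totals. All 41 megakaryocyte-like cells lay on E8.5 plate 5, and 54 of the 78 blood progenitor-like cells on E8.5 plate 2. After thinning, the median cell held reads of 11 members in the erythroid-like, 12 in the megakaryocyte-like, 14 in the blood progenitor-like and 27 in the extraembryonic mesoderm-like class. *Meg3* was at 164.03 CPM in haematoendothelial-like cells and at 1.64 in blood progenitor-like, 0.883 in erythroid-like and 0.451 in megakaryocyte-like cells, and *Phlda2* was at 0.191, 0.399 and 0 CPM in those blood classes.

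Not all members were low in blood. *Grb10* had 448.5 CPM in erythroid-like and 424.1 in haematoendothelial-like cells, and *Mcts2* was highest in blood progenitor-like cells at 131.9 CPM. *Peg13* was highest in myeloid-like cells (32.7 CPM, 24.1 to 51.1 over 3 plates), followed by megakaryocyte-like cells (27.4). *H13* too was highest in myeloid-like cells, at 175.2 CPM, followed by extraembryonic endoderm-like cells at 151.8, and its plates overlapped between these classes.

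Of 37 members with at least 10 CPM in some class, 18 had a highest class of at least 4 times the median class, where 30.6% of all genes did. *H19* reached 648.9 CPM in extraembryonic endoderm-like cells (337.98 to 800.8 over 3 plates) and 411.8 in extraembryonic ectoderm-like cells, and was at 1.72 CPM in epiblast-like cells. *Mest* reached 4839 CPM in haematoendothelial-like cells (2386 to 9672 over 7 plates), and was at 10.5 in erythroid-like cells. *Plagl1* was highest in haematoendothelial-like cells too, at 202.5 CPM, 40.3 times the median class.

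*Phlda2* had its highest pooled level in paraxial and somitic mesoderm-like cells (1684 CPM). That class name is weak, since it rests on 3 markers (*Tbx6*, *Dll1* and *Aldh1a2*), and 3 caudal epiblast-like markers were met too. In a finer clustering (resolution 2), 41 cells carried the name. The 84 of its 95 cells on E7.5 lane plates 5 and 6 pooled to 1119.7 CPM (1823 and 945.2 by plate), little above the 1110 of extraembryonic mesoderm-like and the 1098 of nascent mesoderm-like cells. The wider lead of the class came with its other 11 cells, which pooled to 3277 CPM. *Peg10* was highest in extraembryonic ectoderm-like cells at 844.99 CPM, *Slc38a4* in extraembryonic mesoderm-like cells at 1117 CPM, and *Nnat*, a membrane proteolipid of developing brain, in pharyngeal and cardiac mesoderm-like cells at 243.1 CPM, next to neural ectoderm-like cells at 230.7. *Snrpn* was highest in epiblast-like cells (765.96 CPM, 544.8 to 862.6 over 8 plates) and lowest in extraembryonic endoderm-like cells (13.1), a level seen in 30.4% of cells there. The other 19 members were more even, *Commd1*, *Mcts2* and *Kcnq1ot1* the most of those past the level, with highest classes at 1.41, 1.52 and 1.81 times the median class.

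**Figure D4:**
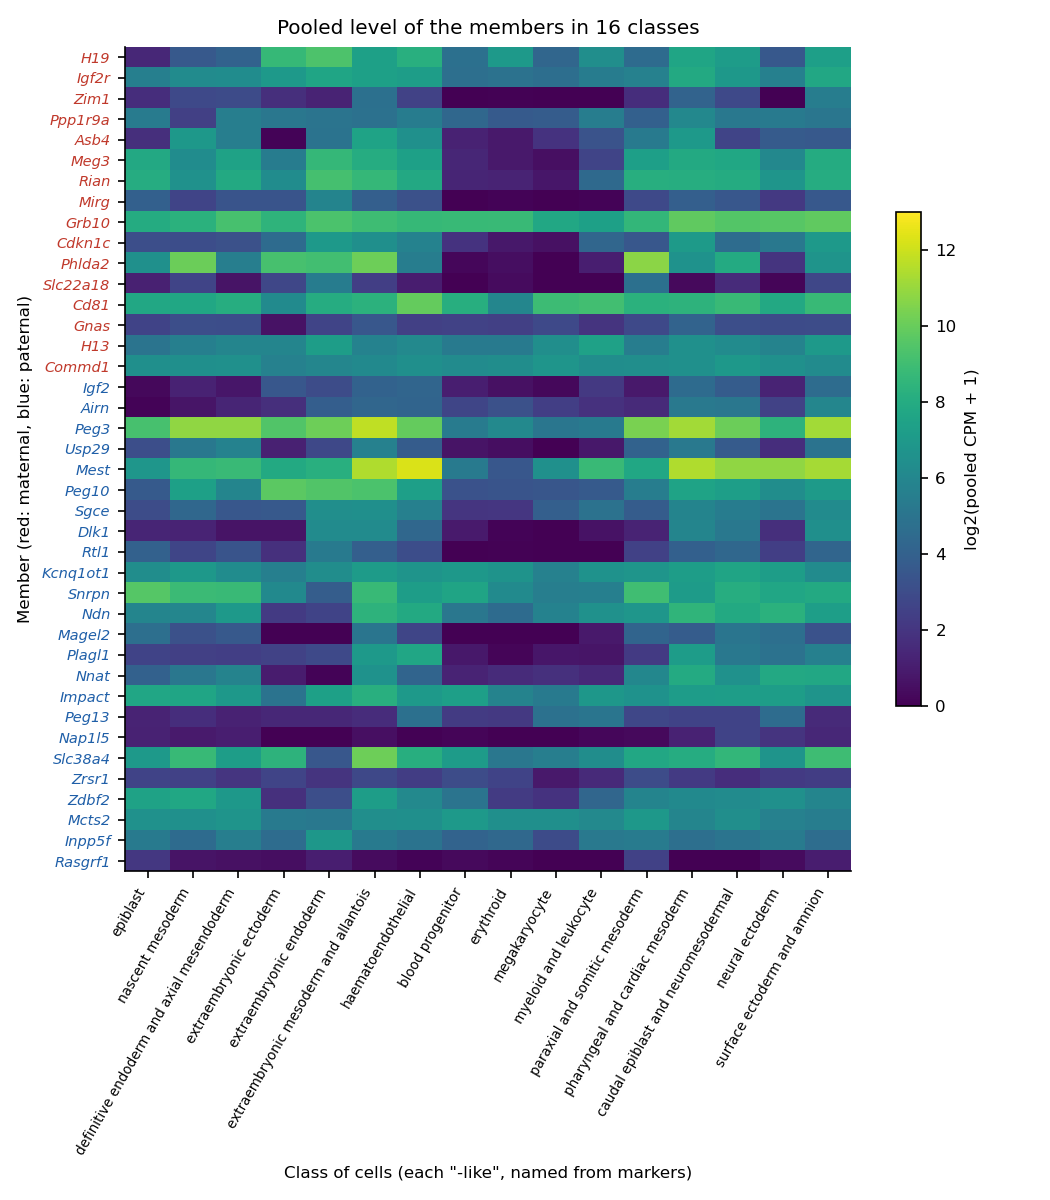
Pooled level of the 40 members (rows, maternal names in red and paternal in blue) in the 16 classes of cells (columns) as log2(pooled CPM + 1), from 0 (dark) to 13 (bright). *Mest* is brightest in haematoendothelial-like cells (4839 CPM), and most members are dark in the blood progenitor-like, erythroid-like and megakaryocyte-like columns, apart from *Grb10*, *Cd81*, *Commd1*, *Mcts2* and a few others.

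Differences between lineages could be tested over embryos, since E7.5 embryos 1, 2, 4 and 5 each gave 1 plate. Reads were summed per class and embryo (18 sums of at least 5 cells), and edgeR's quasi-likelihood test with embryo as a block called genes at a false discovery rate (FDR) of 1% and an absolute log2 fold change of at least 1. All 40 members were among the 17221 genes tested. Whether the separate plates differ beyond the embryo is not known, since each embryo is 1 plate. The share of knockout cells in each class is not known either, so lineage and genotype cannot be told apart in these tests.

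Nascent mesoderm-like cells, which leave the epiblast in gastrulation, were compared with epiblast-like cells in all 4 embryos. Of the 40 members 8 rose, where 0.941% of all genes did, and 2 fell, where 0.888% did. The median log2 fold change of the members was 0.48, and that of all genes −0.01. The 8 that rose include *Asb4*, *Phlda2*, *Peg10* and *H19*, with known roles in placenta and extraembryonic tissue, and *Slc38a4*, *Mest*, *Peg3* and *Usp29*. The 2 that fell, *Meg3* and *Rian*, are the non-coding RNAs of the *Dlk1*-*Dio3* locus.

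*Asb4* was at 0.540, 0.392, 0 and 0 CPM in epiblast-like cells of embryos 1, 2, 4 and 5 and at 76.9, 113.9, 536.7 and 249.7 CPM in nascent mesoderm-like cells, a log2 fold change of 8.71 ± 0.96 (SE; edgeR adjusted p = 1.19e-04). *Phlda2* was at 76.3, 25.7, 5.95 and 23.2 CPM against 1046.3, 984.2, 1169 and 778.7 CPM (5.14 ± 0.49; edgeR adjusted p = 4.22e-05). The groups did not overlap for either gene. *Slc38a4* was at 164.97, 89.9, 52.3 and 72.5 CPM against 443.9, 523.8, 383.9 and 394.2 CPM (2.30 ± 0.23; edgeR adjusted p = 7.47e-05). *Peg3* was at 542.8, 533.4, 1526 and 601.2 CPM against 1842, 2261, 2875 and 2405 CPM (1.68 ± 0.19; edgeR adjusted p = 1.72e-04). *Peg3* rose in 4 of 4 embryos, and its epiblast-like value in embryo 4 was well above the other three.

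*Usp29* rose with its neighbour, from 7.74, 13.4, 26.3 and 7.88 CPM to 40.8, 46.3, 81.5 and 38.9 CPM (2.00 ± 0.38; edgeR adjusted p = 0.008). *Mest* rose from 103.9, 138.1, 73.4 and 138.2 CPM to 257.3, 414.7, 438.5 and 536.1 CPM (1.90 ± 0.32; edgeR adjusted p = 0.004). *H19* rose from at most 2.28 CPM in each embryo to between 8.11 and 35.98 CPM (3.77 ± 0.39), and *Peg10* rose by 4.42 ± 0.79. *Meg3* fell from 204.9, 261.7, 272.1 and 178.6 CPM to 71.5, 77.8, 55.99 and 58.5 CPM (−1.77 ± 0.19; edgeR adjusted p = 1.17e-04), and *Rian* from 269.1, 319.96, 292.2 and 304.6 CPM to 103.8, 116.2, 100.6 and 64.8 CPM (−1.63 ± 0.18; edgeR adjusted p = 9.86e-05). Both non-coding RNAs were lower in all 4 embryos without overlap.

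*Igf2* (3.18 ± 0.81), *Ppp1r9a* (−2.79 ± 0.61), *Magel2* (−2.44 ± 0.71), *Rtl1* (−1.66 ± 0.38) and *Rasgrf1* (−3.69 ± 1.72) had large fold changes that did not pass, with edgeR adjusted p of 0.042, 0.018, 0.086, 0.026 and 0.306. Without embryo 5, the count of members called was 7, and without embryos 1, 2 or 4 it was 9, 9 and 8. DESeq2 called 16. The calls of *Asb4*, *H19*, *Meg3*, *Peg3*, *Phlda2*, *Rian* and *Slc38a4* held without each embryo, whereas those of *Peg10*, *Usp29* and *Mest* were lost without at least 1 of them.

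Near *Mest*, the stretch before one of its annotated starts at chr6:30737800-30738049 (GRCm38.p6, RefSeq, plus strand, 250 bases, 14 CpG, no annotated exon) holds the hexamer more than once, and it is shown for that reason. Both of its 2 matches are written in capitals as GCGGCA.

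Mest: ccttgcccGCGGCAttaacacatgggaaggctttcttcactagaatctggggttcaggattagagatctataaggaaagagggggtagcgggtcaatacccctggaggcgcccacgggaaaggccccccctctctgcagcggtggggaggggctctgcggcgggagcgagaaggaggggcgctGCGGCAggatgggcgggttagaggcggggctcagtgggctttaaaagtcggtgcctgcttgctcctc

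Extraembryonic ectoderm-like cells, the trophoblast side of the conceptus, came from embryos 4 and 5 alone (50 and 37 cells). In its chimaeras, the paper found that injected cells did not contribute to this compartment. Epiblast-like cells can hold both host and knockout cells, so lineage and genotype are confounded in this comparison. Against epiblast-like cells, 5 members rose, where 1.69% of all genes did, and 11 fell, where 3.05% did. The median log2 fold change of the members was −0.54, and that of all genes 0.01. *H19* was at 445.9 and 389.95 CPM in embryos 4 and 5, against 0.684, 1.31, 1.44 and 2.28 CPM in epiblast-like cells of embryos 1, 2, 4 and 5 (7.90 ± 0.46; edgeR adjusted p = 3.27e-07). *Igf2* (6.05 ± 0.99), *Peg10* (5.99 ± 0.94), *Phlda2* (4.55 ± 0.56) and *Slc38a4* (2.27 ± 0.29) rose as well.

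Those that fell were *Snrpn*, *Ndn*, *Magel2*, *Zdbf2*, *Nnat*, *Usp29*, *Gnas*, *Impact*, *Meg3*, *Rian* and *Cd81*. *Snrpn* was at 64.5 and 72.3 CPM against 676.8, 802.1, 544.8 and 666.6 CPM (−3.03 ± 0.28; edgeR adjusted p = 1.30e-05). *Zdbf2* was at 2.34 and 3.28 CPM against 194.5, 263.7, 164.04 and 135.5 CPM (−5.59 ± 0.66; edgeR adjusted p = 1.04e-04). *Magel2* had no read in this class and 23.1 CPM in epiblast-like cells. Over all plates it was seen in 61.7% of epiblast-like cells and in 0% of extraembryonic ectoderm-like cells. Reads are not independent molecules, so no fold is given. *Peg3* did not pass (−0.35 ± 0.24; edgeR adjusted p = 0.416), while its neighbour *Usp29* did (−3.55 ± 0.58; edgeR adjusted p = 0.001).

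Without embryo 4 the number of members called fell from 16 to 9, and without embryo 5 to 6, since 1 embryo then held the class. With at least 10 cells per sum it was 5, as embryos 4 and 5 had 9 epiblast-like cells each. The calls of *H19*, *Snrpn*, *Ndn*, *Zdbf2* and *Cd81* held without each embryo, and those of the other 11 members, *Igf2*, *Peg10*, *Phlda2*, *Slc38a4* and *Usp29* among them, were lost without at least 1.

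Extraembryonic endoderm-like cells, of the yolk sac lineage, also came from embryos 4 and 5, with 12 cells each. Here 15 members rose, where 4.18% of all genes did, and 6 fell, where 4.39% did. The median log2 fold change of the members was 0.88, and that of all genes −0.17. *H19* was at 800.8 and 337.98 CPM (8.36 ± 0.47; edgeR adjusted p = 2.20e-07). *Grb10* was at 1902 and 1434 CPM against 244.2, 274.7, 410.5 and 401.4 CPM (2.37 ± 0.27; edgeR adjusted p = 6.93e-05), and *H13* at 188.7 and 120.7 CPM against 26.2, 29.5, 37.7 and 19.9 CPM (2.38 ± 0.29; edgeR adjusted p = 9.23e-05).

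Several members of 2 clusters rose here. At the *Dlk1*-*Dio3* locus *Mirg* (2.48 ± 0.43), *Rtl1* (2.39 ± 0.47), *Meg3* (1.51 ± 0.23) and *Rian* (1.49 ± 0.21) rose, the latter pair opposite to their fall in the nascent mesoderm-like and extraembryonic ectoderm-like comparisons. At the *Peg10*-*Sgce* locus *Asb4* (6.44 ± 1.02), *Peg10* (6.12 ± 0.94) and *Sgce* (4.97 ± 0.68) rose. *Igf2* (5.27 ± 0.99), *Cdkn1c* (4.60 ± 0.92), *Mest* (2.27 ± 0.40), *Inpp5f*, a phosphoinositide phosphatase (1.74 ± 0.36), and *Igf2r* (1.63 ± 0.28) made up the rest.

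*Snrpn* fell, to 5.09 and 14.3 CPM (−5.96 ± 0.34; edgeR adjusted p = 2.20e-07). *Nnat* (−5.85 ± 1.07), *Zdbf2* (−5.24 ± 0.67), *Ndn* (−4.34 ± 0.40) and *Slc38a4* (−2.55 ± 0.34) fell too, all of them paternal. *Magel2* had no read, against 23.1 CPM in epiblast-like cells. *Plagl1* had no read either but did not pass (edgeR adjusted p = 0.058), and nor did *Airn* (0.049). Without embryo 4 the number called fell from 21 to 12, without embryo 5 to 9, and with at least 10 cells per sum to 5. The calls of *H19*, *Grb10*, *H13*, *Snrpn*, *Ndn*, *Zdbf2* and *Slc38a4* held without each embryo, and those of the other 14 members, *Meg3*, *Rian*, *Peg10* and *Igf2* among them, were lost without at least 1.

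**Figure D5:**
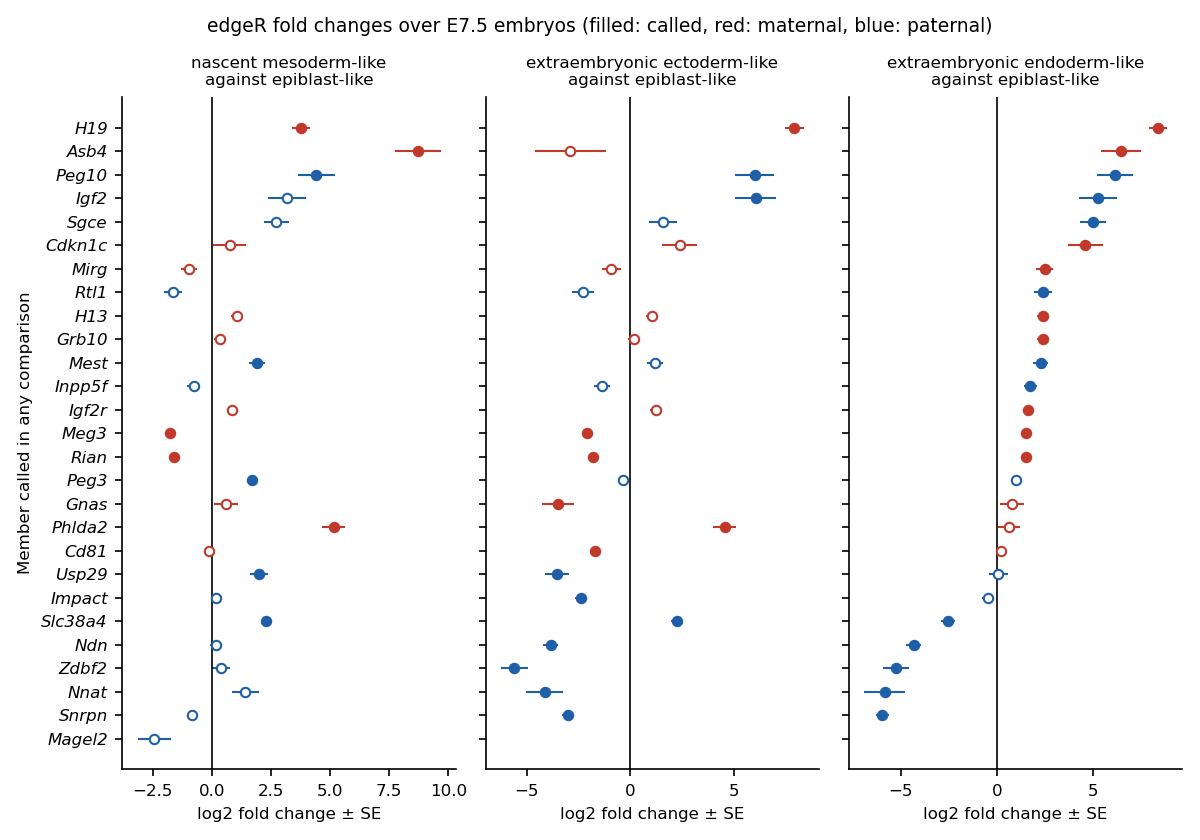
EdgeR log2 fold change ± SE against epiblast-like cells over E7.5 embryos for the 27 members called in any of the 3 comparisons, filled where called, red for maternal and blue for paternal members. *H19* is filled and right of 0 in each panel (3.77, 7.90 and 8.36) and *Snrpn* lies furthest left in the extraembryonic endoderm-like panel (−5.96), while *Magel2* is not drawn in the extraembryonic panels, where it had no read.

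The comparisons share their epiblast-like sums, so their fold changes are not independent. The direction of the difference between them was not tested.

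Between the stages, 7 of 32 members at 10 CPM or more were 2-fold higher at E8.5 in pooled CPM, where 6.99% of all genes were, and 4 were 2-fold lower, where 8.23% were. None of the 32 had plates that did not overlap between the stages, where 1.79% of all genes did. *Dlk1* was at 11.5 CPM at E7.5 (1.26 to 47.6 over plates, median 5.44) and 43.004 at E8.5 (0.0467 to 105.7, median 29.4). *Cdkn1c* was at 21.5 CPM (3.81 to 102.1, median 16.05) and 73.2 (1.41 to 183.01, median 52.5). *Airn* was at 6.03 and 23.2 CPM, *Plagl1* at 37.3 and 114.7, *Igf2* at 4.80 and 15.1, *Nnat* at 30.8 and 83.3, and *Mest* at 1055.7 and 2749.

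The 4 lower members were *Phlda2*, at 538.96 CPM at E7.5 (74.2 to 1148, median 540.7) and 156.4 at E8.5 (0.0934 to 435.5, median 101.9), *Asb4* at 83.7 and 29.5, *Zdbf2* at 110.5 and 47.7, and *Usp29* at 23.1 and 10.3. *Snrpn*, at 349.8 and 177.2 CPM, was just short of 2-fold lower. The stages held different classes of cells on their plates, and the plates overlapped widely, so the stage difference of the pooled values was not tested apart from the classes.

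The stages were also set side by side within 8 classes with at least 10 cells at each. In extraembryonic mesoderm-like cells, of 35 members past the level, 18 were 2-fold higher at E8.5 (56 cells, 29.5% of the class) than at E7.5, where 14.3% of all genes were, and 2 were lower, where 12.6% were. The median log2 ratio was 1.04, against 0.12 for all genes. *Cdkn1c* went from 25.03 to 330.04 CPM, *Plagl1* from 62.7 to 374.1, *Dlk1* from 37.6 to 217.3 and *Igf2* from 8.23 to 45.6. Most of these E8.5 cells came from plates 4 (29 cells) and 8 (18 cells), both of them even plates. In haematoendothelial-like cells, of which 58.1% were from E8.5, 2 of 31 members were 2-fold higher, where 8.41% of all genes were, and 2 lower, where 8.93% were, with a median of −0.01 against 0.17 for all genes. Both classes join clusters that the stages filled unequally. Of the extraembryonic mesoderm-like clusters, 1 held 120 cells of E7.5 and 1 of E8.5, another 8 and 40, and the last 6 and 15, and of the haematoendothelial-like clusters, 1 held 59 and 0 and another 8 and 77. Stage and cluster cannot be told apart in these values, nor can stage and even plate in the extraembryonic mesoderm-like cells.

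*Inpp5f* was lower at E8.5 in each of the 8 classes compared, by log2 ratios from −2.39 in myeloid-like to −0.88 in pharyngeal and cardiac mesoderm-like cells, for example at 41.9 and 16.1 CPM in haematoendothelial-like cells. *Asb4* was lower in 7 of them and higher in neural ectoderm-like cells (7.23 and 15.6 CPM). The 7 include erythroid-like cells, where *Asb4* was under 10 CPM at both stages, so no order is read there. How many of all genes keep the same direction over the 8 classes was not counted. *Phlda2* differed by class, with 53.1 and 858.4 CPM in extraembryonic endoderm-like cells and 246.7 and 46.99 CPM in pharyngeal and cardiac mesoderm-like cells. The E8.5 extraembryonic endoderm-like cells lay mostly on plate 1.

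A list of 34 further imprinted genes outside the members was read in the same way. None of the 11 of them past the level in every pair kept 1 direction over the 4 pairs of E8.5 plates. Of all genes at that level, 11% were higher on the even plate in all 4 and 4.75% on the odd plate, so none of 11 is near those shares. In the embryo comparisons, edgeR called 0 of 27 tested in the nascent mesoderm-like cells, where 0.941% of all genes rose and 0.888% fell. It called 4 of 27 in extraembryonic ectoderm-like cells, where 1.69% of all genes rose. *Sfmbt2*, *Gab1*, *Jade1* and *Ascl2*, each known for imprinting in extraembryonic tissue, rose there by 6.75 ± 0.93, 5.49 ± 0.76, 2.20 ± 0.44 and 5.92 ± 1.24. It called 3 of 27 in extraembryonic endoderm-like cells, where 4.18% of all genes rose. *Ddc*, *Pon2* and *Gab1* rose there by 6.10 ± 1.03, 4.84 ± 0.91 and 4.28 ± 0.75.

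Of 9 genes that keep imprints, 7 were past the level in every pair, and *Setdb1*, a histone methyltransferase, was higher on the even plate in all 4, by small amounts (97.5 and 105.2 CPM, 66.4 and 68.6, 71.95 and 85.3, 78.4 and 91.5). Of all genes at that level, 11% were higher on the even plate in all 4, so 1 of 7 is near that share. *Zfp57* was at 7.59, 3.14, 55.3, 61.4, 10.5, 38.5, 15.8 and 17.2 CPM on E8.5 plates 1 to 8. In the embryos it rose in nascent mesoderm-like cells, from 7.38, 15.1, 14.8 and 37.3 CPM to 68.1, 100.2, 105.1 and 83.8 CPM (2.50 ± 0.36; edgeR adjusted p = 0.001). *Zfp57* was the only gene called of 8 tested in that comparison, where 0.941% of all genes rose. Unlike the members, these genes were not left out of the clustering. The call is therefore not independent of the classes if *Zfp57* was among the variable genes.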

How the data were processed

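RNA of single cells was measured by Smart-seq2. The deposited values are raw counts of reads for each gene in each cell. The authors aligned with HISAT2 2.1.0 to GRCm38, as the submitters' processing notes name them, and counted with featureCounts on an Ensembl annotation. Strand and multi-mapping settings are not given in the sources used here, so overlapping and antisense genes are uncertain. All 1824 columns matched a cell, and 0 were unused. Symbols and positions came from GENCODE M21 (55141 identifiers matched). The remainder held 0.0120% of reads.

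Cells with at least 100000 reads, at most 10% mitochondrial and 20% ribosomal protein reads were kept, and 15 failed the last 2 limits. The sorts collected singlets, and no doublet caller was run. CPM was computed here from the counts. With scanpy 1.11.5, 2000 variable genes without the members, 30 principal components and 15 neighbours gave Leiden clusters at resolution 1. A cluster was named "-like" from at least 3 markers seen in 25% of its cells and 2-fold higher than elsewhere. The members and lists were chosen with earlier results of these data known.

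Log2 ratios used a pseudocount of 1 CPM, which understates low genes, and genes of at least 10 CPM in either group, and are given as even over odd plate. Genes were named by rule: members sharing a locus and, in each comparison, up to 5 members at either end. Sums per class and E7.5 embryo were tested with edgeR 4.0.16 (TMM, filterByExpr, R 4.3.3) in 1 fit of 18 sums with 9 residual degrees of freedom, with the embryo as a block since sums of an embryo come from the same animal. On simulated counts of the nascent mesoderm-like comparison (16279 genes), 81 of 200 genes changed 4-fold were called, 77 of the 105 with at least 10 CPM, and 0 unchanged genes. Alternatives, DESeq2 1.42.0 among them, are given in the closing section. Intervals are 95% Clopper-Pearson (scipy 1.17.1). Upstream windows came from RefSeq promoters of GRCm38.p6, found for 33 members.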

Additional observations from a re-analysis of the deposited data

Results flagged for a closer look

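In the epiblast-like cells of E7.5 embryos, *Peg3* stood apart in embryo 4, with 1526 CPM against 542.8, 533.4 and 601.2 CPM in embryos 1, 2 and 5. *H13* in nascent mesoderm-like cells stood apart in embryo 4 too, with 84.98 CPM against 47.6, 48.2 and 51.3 CPM. *Plagl1* in epiblast-like cells stood apart in embryo 1, with 11.7 CPM against 2.85, 3.90 and 2.69 CPM. In each, the gap to the nearest other embryo, divided by the range of the 4, was above Dixon's 95% critical value for 4 samples. These are 3 of 58 groups, and chance flags about 1 in 20. The epiblast-like sum of embryo 4 held 9 cells and its nascent mesoderm-like sum 7 cells.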

How the results depend on the processing

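With a false discovery rate of 5% and no minimum fold, the members called in nascent mesoderm-like cells rose from 10 to 16, and with DESeq2 to 16. With at least 10 cells per sum they were 6 there, 5 (from 16) in extraembryonic ectoderm-like and 5 (from 21) in extraembryonic endoderm-like cells. Without 1 embryo they ranged from 7 to 9, from 6 to 15 and from 9 to 19. Without the replicate block, the counts were 10, 18 and 22. Under all alternatives other than the 10-cell minimum, 7, 5 and 7 of the members stayed called, those named beside each comparison.

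Turned orders are given for members at least 2-fold apart on whole plates. In erythroid-like cells only, 7 members were 2-fold apart on plates 1 and 2, from 19, and the order turned for *Meg3* (1.97), *Rian* (2.36), *Cdkn1c* (0.46), *Phlda2* (0.09), *Peg10* (0.76) and *Dlk1* (0.54). In haematoendothelial-like cells of plates 3 and 4 it turned for *Phlda2* (−0.04). On plates 7 and 8 the count moved from 9 to 17 in caudal epiblast-like and 16 in pharyngeal and cardiac mesoderm-like cells, and the order turned in caudal epiblast-like cells for *Phlda2* (−0.32), *Igf2* (−0.70), *Ndn* (−0.05) and *Peg13* (0.60), and in surface ectoderm-like cells for *Gnas* (−0.51). Of these, *Meg3*, *Rian*, *Cdkn1c*, *Phlda2* and *Dlk1* in erythroid-like, *Peg13* in caudal epiblast-like and *Gnas* in surface ectoderm-like cells were under 10 CPM on both plates, where depth and few cells limit the value. At 8 times the median class, 11 members were uneven, from 18. Other settings left the counts of 61 (all pairs) and 11 (stages) within 57 to 72 and 10 to 14.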
